A study of Mus musculus with 12 samples.

Results

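The genes described here are 47 genes of mitosis, the stage of the cell cycle in which copied chromosomes are condensed, attached to the spindle and shared out between the daughter cells. They were listed by symbol, with earlier results of these data known. All 47 symbols were found in both count tables, among 24538 genes. By role they fell into 7 sets: 8 genes of entry into mitosis, 7 of the spindle checkpoint and the anaphase-promoting complex, 5 of the Aurora kinases and the chromosomal passenger complex, 8 of the kinetochore and centromere, 6 of the spindle and its motors, 6 of the central spindle and cytokinesis, and 7 of chromosome structure. RNA was sequenced from mouse bone marrow sorted into LSK cells (negative for lineage markers, positive for Sca-1 and Kit), which include the blood stem cells, and into cells described as MPP, for multipotent progenitor. The mice were wild type (WT), Tet2 knockout (KO) or Tet2 mutant (Mut), all of a mixed 129/C57/B6 strain and 10 weeks old. Tet2 oxidises methylated cytosines in DNA, and by its title the study asked what Tet2 does apart from that activity, so KO was also compared with Mut. Marrow of 2 mice was pooled for each genotype, and each pool gave 2 technical replicate libraries of each population, which makes 6 groups of 2 among 12 libraries. Every error and p value below measures the spread between libraries of one pool and not between mice. The labels give neither the altered residues of Mut nor the gates of MPP, and the sample titles call that population Lin. Levels are given as CPM, gene counts divided by the scaled library size. A difference is a fitted log2 difference ± its standard error (SE). Genes with an adjusted p under 0.05 in edgeR's quasi-likelihood test, adjusted by Benjamini-Hochberg over all genes tested, are said to be called. All 47 genes had counts in every library and passed the filter on low counts in every comparison.

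Cells enter mitosis when cyclin A and cyclin B activate the kinase Cdk1, aided by Cdc25 phosphatases and the kinase Plk1. Chromosomes are compacted by condensin and topoisomerase II, and their kinetochores are captured by the microtubules of the spindle. The spindle checkpoint holds Cdc20 and the anaphase-promoting complex in check until every kinetochore is attached, after which cyclin B is destroyed and the cell divides. Many of these genes are transcribed late in the cycle, from promoters with a cell-cycle genes homology region (CHR) near the start and CCAAT boxes upstream of it. In bone marrow, stem cells divide rarely and their committed descendants often. In bulk libraries like these, fewer dividing cells and less RNA per dividing cell cannot be told apart.

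The promoters were examined because the 47 genes share a time of expression. RefSeq windows from 250 bases before to 50 after the start, on GRCm38.p6, were matched to 38 of the 47. The letters TTTGAA and TTCGAA, a pair of CHR forms, were searched on both strands. Either lay within 50 bases of the start in 28 of the 38 genes (73.7%), against 6.12% of all 27025 genes with a window. Among other mitosis genes the share was 45.3% (29 of 64), and among DNA replication genes, which are expressed earlier in the cycle, 5.13%. CCAAT on either strand stood anywhere in the window in 73.7% of the members, 64.1% of other mitosis genes, 66.7% of replication genes and 41.1% of all genes. CHR and CCAAT letters stood together anywhere in the window in 71.1%, 39.1%, 12.8% and 8.61% of these. These matches describe letters and are not shown to be sites. The 7 sequences printed here belong to genes named in the results below. Windows were not matched for Aurkb and Kif20a, and that of Mad2l1, not printed, held neither CHR form nor CCAAT. Each runs 5′ to 3′ on the strand of its gene, from 120 bases before to 50 after the start, with CHR and CCAAT letters in capitals (TTCAAA and ATTGG are the same elements read on the other strand). Plk1, Ccnb2, Cdc20 and Cenpa carry the CHR on their own strand, Kif11 and Oip5 carry it on the other, and Ccnb1 holds CCAAT without either form.
Plk1: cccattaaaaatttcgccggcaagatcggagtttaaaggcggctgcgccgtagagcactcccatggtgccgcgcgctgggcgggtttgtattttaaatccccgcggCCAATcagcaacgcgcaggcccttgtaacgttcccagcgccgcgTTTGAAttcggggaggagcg
Ccnb2: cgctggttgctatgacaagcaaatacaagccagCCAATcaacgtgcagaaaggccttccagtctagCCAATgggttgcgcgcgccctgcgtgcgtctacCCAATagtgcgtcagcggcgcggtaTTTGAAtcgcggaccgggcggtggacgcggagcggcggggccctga
Cdc20: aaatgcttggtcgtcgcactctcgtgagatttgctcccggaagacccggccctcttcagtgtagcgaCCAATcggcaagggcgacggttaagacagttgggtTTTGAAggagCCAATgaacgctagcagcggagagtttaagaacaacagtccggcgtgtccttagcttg
Cenpa: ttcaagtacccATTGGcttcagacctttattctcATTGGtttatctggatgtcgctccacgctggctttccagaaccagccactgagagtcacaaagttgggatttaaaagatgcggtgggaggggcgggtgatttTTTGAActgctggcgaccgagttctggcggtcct
Kif11: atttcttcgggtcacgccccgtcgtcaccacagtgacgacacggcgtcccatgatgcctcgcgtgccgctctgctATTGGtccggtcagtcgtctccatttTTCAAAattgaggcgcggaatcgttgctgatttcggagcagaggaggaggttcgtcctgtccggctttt
Oip5: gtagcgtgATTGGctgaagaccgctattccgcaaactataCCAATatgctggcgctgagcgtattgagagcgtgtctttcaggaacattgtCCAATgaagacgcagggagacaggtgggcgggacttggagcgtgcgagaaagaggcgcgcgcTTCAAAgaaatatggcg
Ccnb1: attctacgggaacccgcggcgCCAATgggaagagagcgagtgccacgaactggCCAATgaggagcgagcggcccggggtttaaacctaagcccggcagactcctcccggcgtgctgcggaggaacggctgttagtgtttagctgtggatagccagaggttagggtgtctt

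The sequence of Plk1 is chr7:122159315-122159484 on the plus strand. Those of Ccnb2 (chr9:70421505-70421674, minus), Cdc20 (chr4:118437294-118437463, minus), Cenpa (chr5:30666766-30666935, plus) and Kif11 (chr19:37376262-37376431, plus) are given with their strand. Those of Oip5 (chr2:119618456-119618625, minus) and Ccnb1 (chr13:100786437-100786606, minus) follow. The starts of Oip5 and Nusap1 face each other on chromosome 2. In the GENCODE annotation of GRCm38 their exons overlap by 172 bases, 9.67% of the exon length of Oip5, and 7 of the 47 genes share more than 10% of theirs with a neighbour. Kif20a shares the most, 29.3% with Cdc23 on the opposite strand. The strand setting of the counting is not given, so reads in such stretches cannot be assigned to one gene of the pair.

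The libraries differed in ways that touch the results. Gene counts ran from 9181027 (LSK WT replicate 1) to 23532847 (MPP Mut replicate 1). The LSK WT libraries stood apart, with 12470 and 12614 genes detected against 13333 to 14264 in the other libraries. The ribosomal RNA gene Rn45s took 3.65% and 3.70% of their gene counts, against 2.47% and 2.51% in LSK KO and 0.873% to 1.10% in LSK Mut and MPP. The median gap between the replicates over the 47 genes was 0.576 (log2) in LSK WT and 0.156 to 0.240 in the other groups. Of the 47 genes, 12 differed by more than 1 between the LSK WT replicates, against 3 in LSK KO, 1 in MPP WT and 0 in each other group. Tet2 stood at 87.3 and 62.7 CPM in LSK WT, 29.2 and 31.7 in LSK KO, and 43.4 and 44.4 in LSK Mut. In MPP it stood at 39.6 and 29.4 CPM in WT, 34.9 in both libraries labelled KO, and 40.2 and 37.4 in Mut, so its level did not set those labelled KO apart there. The stem cell list of 12 markers summed to 2058 to 2484 CPM in LSK and 502 to 688 in MPP. The list includes Kit and the Sca-1 gene Ly6a, whose products define LSK, so its sum is not independent of the sort. Ly6a averaged 10.4 to 20.3 CPM in the MPP groups. Markers of granulocyte-monocyte progenitors, a later stage, summed to 48324 to 63270 CPM in MPP and 2141 to 6191 in LSK.

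The 47 genes together took 4561 and 4675 CPM in LSK WT, 4489 and 4413 in LSK KO, and 5560 and 5274 in LSK Mut. In MPP they took 6138 and 6363 CPM in WT, 6911 and 7070 in KO, and 6696 and 6767 in Mut. Every LSK library lay below every MPP library, and both LSK Mut libraries lay above the other LSK libraries. Of the role sets, 3 parted the populations without overlap. Entry genes summed to 524 to 680 CPM in the LSK libraries and 959 to 1159 in MPP, the checkpoint set to 596 to 926 against 1111 to 1246, and the Aurora and passenger set to 453 to 635 against 862 to 1012. The other 4 overlapped: kinetochore genes took 520.1 to 723 CPM in LSK and 705 to 906 in MPP, spindle genes 313 to 501 and 500.5 to 601, central spindle genes 332 to 455 and 410.3 to 556, and chromosome structure genes 1410 to 1661 and 1508 to 1700.2. Of the 47 genes, 16 had all 6 LSK libraries below all 6 MPP libraries and 0 had them above, against 11.1% and 8.63% of the 14033 genes tested. The highest group mean was an MPP group for 40 of the 47 and for 44.2% of all genes, and the lowest was an LSK group for 44 of the 47 and for 51% of all genes.

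**Figure D1:**
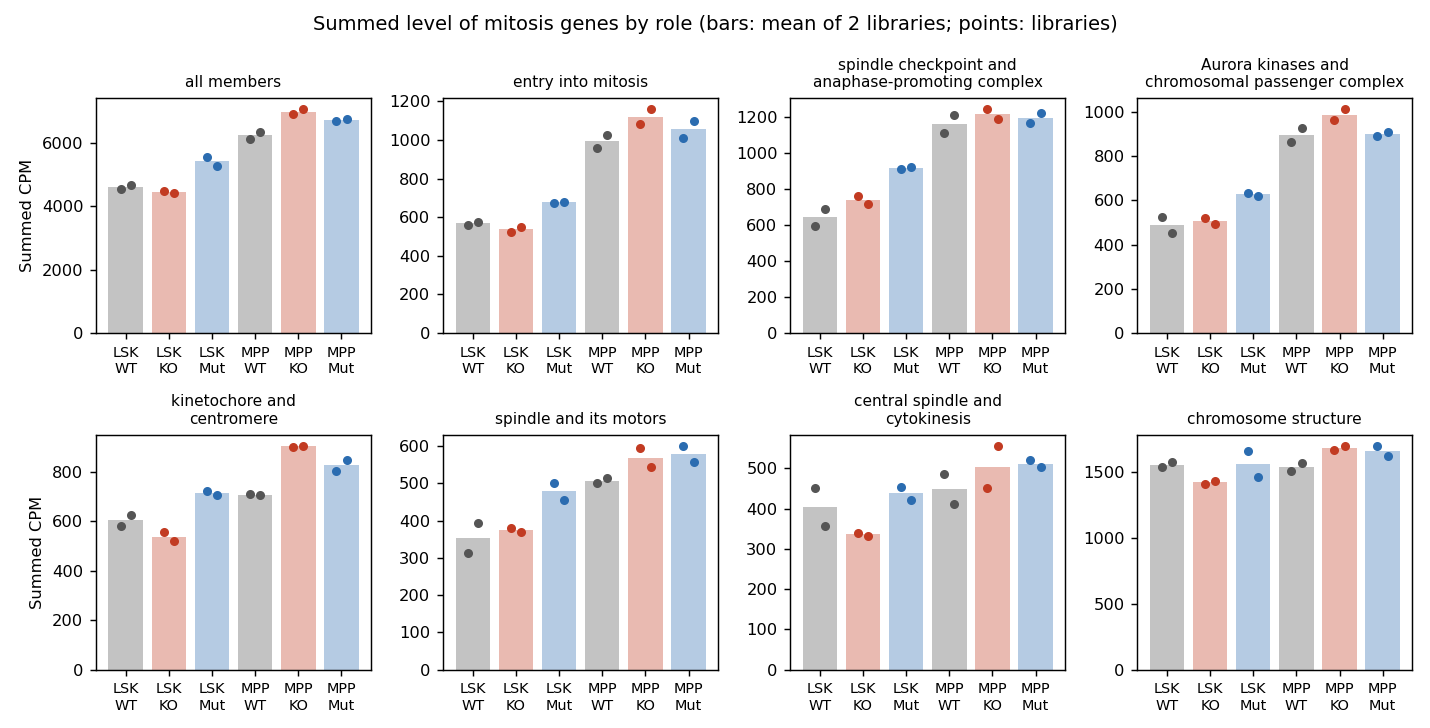
Summed CPM of the mitosis genes and of each of the 7 role sets by group. Bars are means of 2 libraries, points are libraries, and each panel has its own axis from 0. The LSK libraries lie between 4413 and 5560 CPM and the MPP libraries between 6138 and 7070 for the 47 genes together, while the kinetochore, spindle, central spindle and chromosome structure panels overlap; CPM are TMM-scaled, and spike-in scaling puts LSK above MPP.

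Between genes, levels were compared per kilobase of exon, with the exons of all GENCODE transcripts of a gene merged. That length was 1531 bases for Ccnb2, 1868 for Cdc20 and 2600 for Ube2c, against 5860 for Cenpa and 8390 for Mad2l1. Oip5, also short at 1778 bases, ranked 35 in LSK KO. The order depends on this length, and the transcripts present in these cells were not determined. Ube2c also shares 22.8% of its exon length with Tnnc2 on the opposite strand. Ccnb2, which encodes a B-type cyclin, Cdc20, the activator of the anaphase-promoting complex, and Ube2c, the ubiquitin-conjugating enzyme of that complex, ranked highest in 5 of the 6 groups. The third place of Ube2c over Smc4, a condensin subunit, lay within the spread in LSK KO (63.0 ± 5.23 against 58.1 ± 8.88 CPM per kilobase, SD, n = 2) and in LSK Mut (67.8 ± 1.43 against 67.8 ± 9.42). In MPP WT they stood at 158 ± 14.1, 132 ± 23.6 and 87.1 ± 4.95 CPM per kilobase (SD, n = 2). The spreads of Ccnb2 and Cdc20 overlap there. In LSK WT the order was Ube2c, Smc4 and Ccnb2, at 77.8 ± 11.2, 69.0 ± 12.97 and 68.8 ± 17.3 CPM per kilobase, which do not differ beyond their spread.

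**Figure D2:**
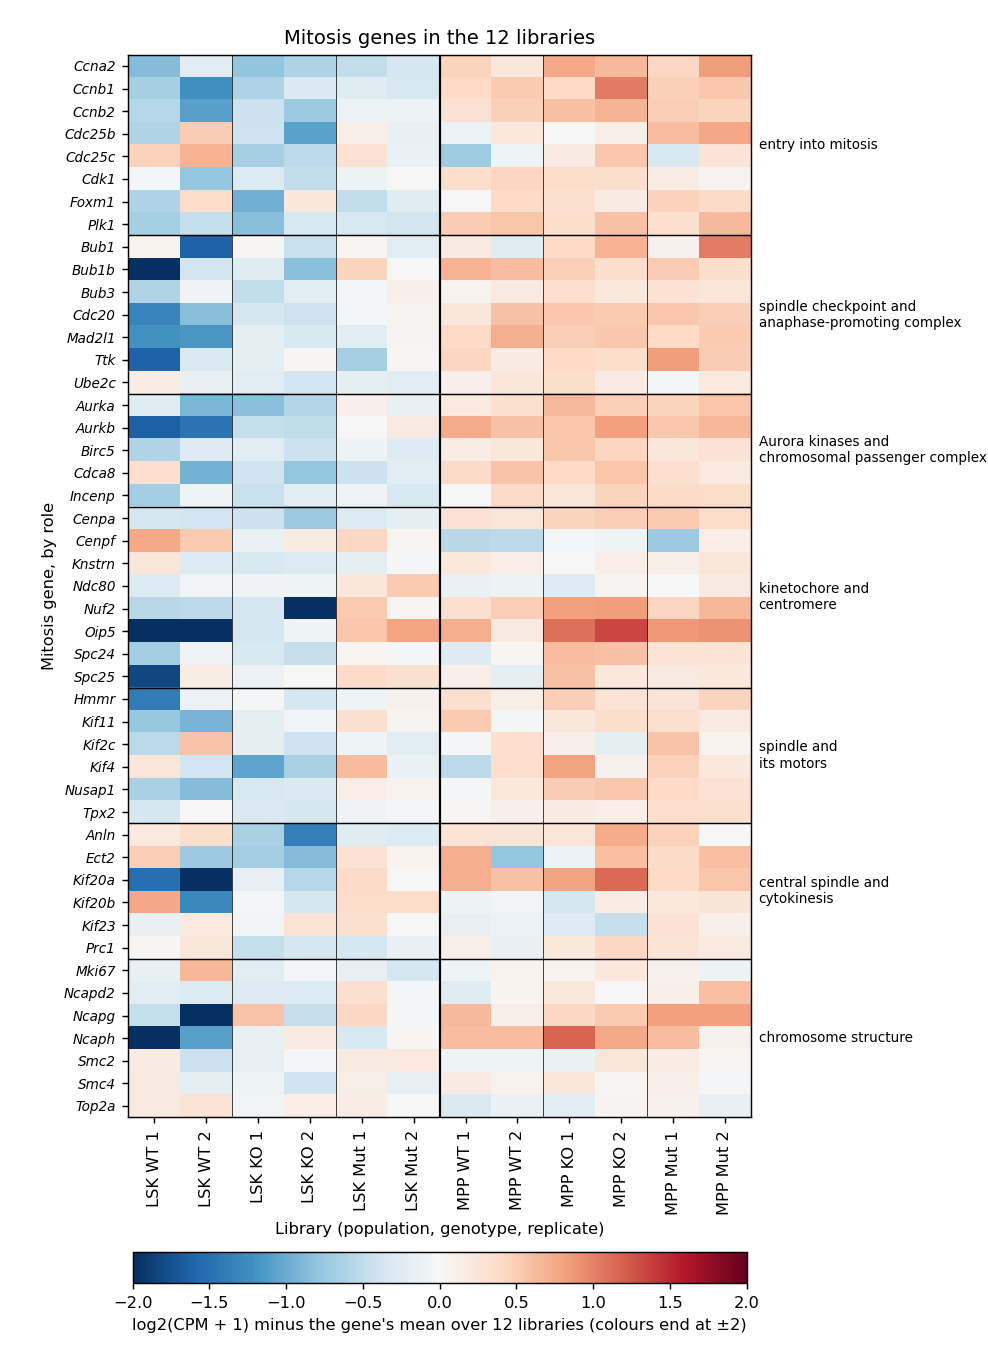
Rows are the 47 mitosis genes by role, columns the 12 libraries, and colour is log2(CPM + 1) minus the mean of the gene over the libraries, ending at ±2. Most genes are blue in the 6 LSK columns and red in the 6 MPP columns on this TMM scale, which spike-in scaling reverses, and Cenpf is red in LSK WT.

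Mitosis genes stood lower in LSK than in MPP when counts were scaled by TMM, which takes most genes to be alike in the populations; scaled by spike-ins they stood higher in LSK, as did most genes. In WT, 17 of the 47 genes were called lower in LSK (36.2%) and 2 higher, against 13.7% and 10.2% of the 14033 genes tested. In KO, 22 were lower (46.8%) and 0 higher, against 8.14% and 7.03% of all genes. In Mut, 3 were lower (6.38%) and 0 higher, against 5.21% and 3.55%, so that the share in Mut lay near that of all genes. At an unadjusted p below 0.05, 3, 1 and 0 of the 47 were higher in WT, KO and Mut (16.9%, 14.3% and 11.2% of all genes) and 22, 28 and 12 lower (20.2%, 14.1% and 12.2%), and DESeq2 called 0 higher in KO and Mut. Both LSK libraries lay below both MPP libraries for 25 of the 47 genes in WT, 39 in KO and 33 in Mut, against 30.7%, 30.7% and 27.6% of all genes, and above them for 3, 1 and 4, against 26.1%, 34.3% and 29.9%. The median difference over the 47 genes was -0.54 in WT, -0.76 in KO and -0.31 in Mut, beside 0.00, 0.05 and 0.03 over all genes, and 38, 43 and 40 of the 47 differences were negative. Scaled by spike-ins, the median over all genes became 4.17, 4.66 and 5.88 and that of the 47 3.64, 3.85 and 5.52, so that relative to all genes the 47 stood at -0.53, -0.81 and -0.36. The spike-ins took 0.0822% to 0.229% of counts in LSK libraries and 3.16% to 5.15% in MPP libraries. Of the genes called lower, 14 were shared by WT and KO, which is 82.4% of the genes of WT and 63.6% of those of KO, and 3 were called in all genotypes.

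Cyclins and their kinases were among the clearest of the entry genes. Ccna2, cyclin A2, stood at 80.0 and 126 CPM in LSK WT, 85.0 and 95.8 in KO, and 104 and 116 in Mut, against 172 to 263 in the MPP libraries. Every LSK library lay below every MPP library. Ccna2 was lower in LSK by -0.86 ± 0.22 in WT (adjusted p = 0.0159), -1.42 ± 0.22 in KO (0.00154) and -1.07 ± 0.22 in Mut (0.0120). Plk1, a kinase that acts from entry to cytokinesis, stood at 52.7 and 60.5 CPM in LSK WT, 46.4 and 67.4 in KO, and 67.2 and 65.2 in Mut. Its MPP libraries lay between 106 and 133 CPM, above all of LSK. Plk1 was lower in LSK by -1.11 ± 0.23 in WT (adjusted p = 0.00470), -1.05 ± 0.23 in KO (0.0101) and -0.86 ± 0.22 in Mut (0.0373). The B cyclins and Cdk1, the kinase they activate, were called in WT and KO. Ccnb1 stood at 45.2 and 30.0 CPM in LSK WT and 46.2 and 58.5 in LSK KO, against 94.7 and 104 in MPP WT and 94.6 and 148 in MPP KO. Ccnb1 was lower in LSK by -1.40 ± 0.27 in WT (adjusted p = 0.00379) and -1.21 ± 0.27 in KO (0.0127), and in Mut the difference was -0.80 ± 0.27 (0.0969). Ccnb2 differed by -1.21 ± 0.18 in both WT and KO, and Cdk1 by -0.76 ± 0.21 in WT and -0.75 ± 0.21 in KO. The phosphatase genes Cdc25b and Cdc25c were called in no genotype. Neither was Foxm1, a transcription factor of late cell-cycle genes, with differences of -0.24 ± 0.41 in WT, -0.50 ± 0.41 in KO and -0.79 ± 0.41 in Mut.

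In the checkpoint set, Cdc20 and Mad2l1, a checkpoint protein that binds Cdc20, were called in WT and KO. Cdc20 stood at 73.4 and 102 CPM in LSK WT, 146 and 138 in LSK KO, and 179.6 and 191 in LSK Mut, against 215 to 277 in MPP. No LSK library reached an MPP library. Cdc20 was lower in LSK by -1.49 ± 0.18 in WT (adjusted p = 0.000147) and -0.91 ± 0.17 in KO (0.00533), and the difference in Mut was -0.51 ± 0.17 (0.0992). Mad2l1 stood at 40.8 and 42.0 CPM in LSK WT, 84.6 and 77.2 in KO, and 81.4 and 99.0 in Mut, against 126 to 158 in MPP. Both LSK WT libraries lay below the other LSK libraries, which in turn lay below MPP. Mad2l1 differed by -1.78 ± 0.19 in WT (adjusted p = 7.23e-05), -0.76 ± 0.18 in KO (0.0183) and -0.55 ± 0.18 in Mut (0.0932). The checkpoint kinase-like protein Bub1b was called lower in WT alone, at -1.65 ± 0.41, with LSK WT libraries of 28.6 and 89.2 CPM. Bub3, its partner at the kinetochore, and Ube2c were called in KO alone, at -0.63 ± 0.17 and -0.56 ± 0.15. The kinases Bub1 and Ttk were called in no genotype.

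The chromosomal passenger complex, which joins Aurkb to Incenp, Birc5 and Cdca8 and corrects faulty spindle attachments, held the gene with the smallest p value of the 47. Aurkb stood at 39.2 and 43.4 CPM in LSK WT, 88.3 and 86.5 in LSK KO, and 123 and 139.9 in LSK Mut, and its MPP libraries at 179 to 218. The LSK libraries parted by genotype without overlap, and all lay below MPP. Aurkb was lower in LSK by -2.25 ± 0.17 in WT (adjusted p = 5.13e-06) and -1.20 ± 0.16 in KO (0.000534), and the difference in Mut was -0.51 ± 0.16 (0.0720). Aurka, the Aurora kinase of the spindle poles, was called in WT (-0.82 ± 0.25) and KO (-1.30 ± 0.25). Birc5, survivin, was called in both as well, at -0.61 ± 0.15 and -0.82 ± 0.15, and Cdca8, borealin, in KO at -1.06 ± 0.32. Incenp, the scaffold of the complex, was not called, at -0.56 ± 0.22, -0.67 ± 0.22 and -0.57 ± 0.22.

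At the centromere, Cenpa, the histone H3 variant that marks it, was called in all genotypes. Cenpa stood at 156 and 150.3 CPM in LSK WT, 146 and 118 in KO, and 162 and 171 in Mut, against 232 to 285 in MPP. All LSK libraries lay below all MPP libraries. Cenpa was lower by -0.63 ± 0.14 in WT (adjusted p = 0.00686), -1.05 ± 0.14 in KO (0.000484) and -0.69 ± 0.14 in Mut (0.00953). Oip5, part of the Mis18 complex that acts in the loading of Cenpa, stood at 2.22 and 0.877 CPM in LSK WT, from 21 and 11 counts. It stood at 14.6 and 17.7 CPM in LSK KO and 28.1 and 33.1 in LSK Mut, against 31.8 and 21.5 in MPP WT, 41.6 and 48.8 in MPP KO, and 35.03 and 35.9 in MPP Mut. LSK WT was far below every other library, and LSK Mut overlapped MPP WT. Oip5 was lower in LSK by -4.12 ± 0.50 in WT (adjusted p = 0.000188) and -1.48 ± 0.44 in KO (0.0426), with -0.21 ± 0.43 in Mut (0.831). Nuf2 and Spc24, subunits of the Ndc80 complex that binds microtubules, were called in KO alone, at -1.97 ± 0.59 and -0.99 ± 0.20, and the Nuf2 libraries of LSK KO were 30.5 and 5.17 CPM. Ndc80 itself, Spc25 and Knstrn were called in no genotype. Cenpf, a large kinetochore protein, ran the other way in WT, at 157 and 133 CPM in LSK and 62.4 and 63.6 in MPP, a difference of 1.201 ± 0.27 (adjusted p = 0.00846).

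Among spindle genes, Nusap1, which binds spindle microtubules, was called lower in WT (-0.85 ± 0.19) and KO (-0.84 ± 0.18). Kif11, the motor that pushes the spindle poles apart, stood at 50.03 and 44.01 CPM in LSK WT, 74.0 and 82.0 in LSK KO, and 106 and 88.1 in LSK Mut. Its MPP libraries stood at 83.1 to 122 CPM, so that LSK WT and LSK KO lay below MPP and LSK Mut overlapped it. Kif11 was called lower in WT alone, at -1.13 ± 0.23 (adjusted p = 0.00423), against -0.42 ± 0.22 in KO and -0.07 ± 0.22 in Mut. Kif4, a chromosome-bound motor, was called in KO alone, at -1.36 ± 0.42. Hmmr, Kif2c and Tpx2 were called in no genotype.

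Of the cytokinesis genes, Kif20a, a motor of the central spindle, stood at 17.7 and 9.57 CPM in LSK WT, 46.5 and 35.1 in LSK KO, and 68.7 and 52.1 in LSK Mut, against 69.2 to 117 in MPP. The LSK genotypes parted without overlap, and LSK Mut lay just below the lowest MPP library. Kif20a was lower in LSK by -2.61 ± 0.33 in WT (adjusted p = 0.000238) and -1.35 ± 0.31 in KO (0.0147), with -0.28 ± 0.31 in Mut (0.647). Anln, which organises the contractile ring, and Prc1, which bundles microtubules of the midzone, were called in KO alone, at -1.52 ± 0.34 and -0.73 ± 0.17. Ect2, Kif20b and Kif23 were called in no genotype. In the chromosome structure set, the condensin subunit Ncaph was called lower in WT, at -2.30 ± 0.42, from 9.92 and 28.2 CPM in LSK WT against 94.4 and 94.0 in MPP WT. Top2a, topoisomerase II alpha, was higher in LSK WT, at 409 and 441 CPM against 296 and 329, a difference of 0.44 ± 0.14 (adjusted p = 0.0414), which passed the threshold in 8 of 18 alternatives and did not with only the WT libraries in the fit (0.107). The proliferation antigen Mki67 was not called, at 0.32 ± 0.21 in WT, -0.27 ± 0.21 in KO and -0.25 ± 0.21 in Mut, and its LSK WT libraries stood at 261 and 455 CPM.

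**Figure D3:**
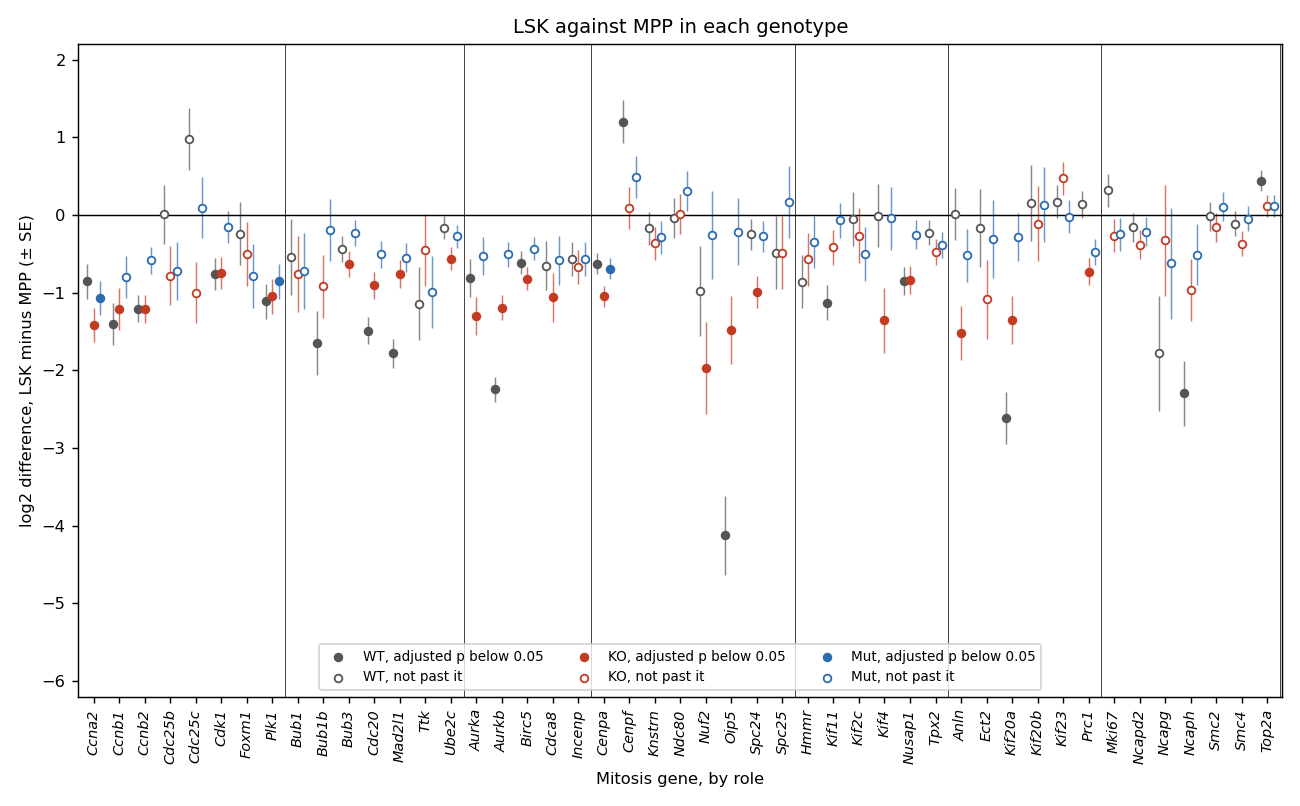
Fitted log2 difference of LSK against MPP for each of the 47 mitosis genes, ordered by role, in WT (grey), KO (red) and Mut (blue), with bars of ± SE. Filled points are called at an adjusted p below 0.05. Most points lie below 0 and the lowest is Oip5 in WT at -4.12, while Cenpf and Top2a in WT are filled above it; spike-in scaling moves nearly all above 0.

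The counts moved with the libraries in the fit, and the cause was not tested. With only the groups compared in the fit, 6 genes were called in WT, 26 in KO and 7 in Mut. The shares of all genes called in those fits are not given here, so these counts are not read as particular to mitosis genes. In KO, 7 were called without LSK KO replicate 2, 10 without LSK KO replicate 1, 8 without MPP KO replicate 2 and 13 without MPP KO replicate 1, when 6.68%, 6.77%, 6.86% and 6.79% of all genes were called. In Mut, 0 were called without either LSK Mut library, 1 without either MPP Mut library, and 11 without either or both of the LSK WT libraries, when 2284, 2296 and 2263 of all genes were called instead of 1229; DESeq2 called 10, and 16% of all genes. Of the 25 genes called lower in WT or KO, 15 of the 21 with a promoter window had a CHR form within 50 bases of the start (71.4%), beside 13 of 17 of the other members (76.5%).

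Within LSK, 32 of the 47 genes had their highest mean of the 3 genotypes in Mut, as did 33.9% of all genes, and few differences passed the test. For Mut against WT, 2 genes were called higher (4.26% of the 47, against 0.539% of the 13170 genes tested), Aurkb and Oip5, and 0 lower (0.737% of all genes). At an unadjusted p below 0.05, 11 of the 47 were higher and 0 lower, against 10.2% and 8.89% of all genes, and DESeq2 called 8 higher and 0 lower, when it called 10.6% of all genes in either direction. The median difference was 0.29, beside 0.01 over all genes, and 34 of 47 differences were positive. Aurkb, whose LSK WT libraries (39.2 and 43.4 CPM) lay below those of LSK Mut (123 and 139.9), was higher in Mut by 1.65 ± 0.22 (adjusted p = 0.0292). Oip5, at 2.22 and 0.877 CPM in LSK WT and 28.1 and 33.1 in LSK Mut, was higher by 4.30 ± 0.68 (adjusted p = 0.0388). Each of these calls passed in 6 of 12 alternatives. Next by adjusted p came Cdc20 (1.06 ± 0.21, adjusted p = 0.0586), Kif20a (2.13 ± 0.43, 0.0639), Mad2l1 (1.10 ± 0.25, 0.0825) and Kif11 (1.03 ± 0.25, 0.0939), none of them called. Both LSK Mut libraries lay above both LSK WT libraries for 24 of the 47 genes and below them for 7, against 26.8% and 20.3% of all genes. The 7 were Anln, Cdc25c, Cenpf, Mki67, Prc1, Top2a and Ube2c, with differences from -0.59 to -0.17. Cdk1, Ccnb1, Plk1, Aurka, Birc5 and Cenpa differed by 0.29 ± 0.25, 0.63 ± 0.33, 0.21 ± 0.30, 0.51 ± 0.32, 0.23 ± 0.19 and 0.10 ± 0.17.

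For KO against WT in LSK, edgeR called 0 of the 47 genes, as it called 0.0456% of all genes. At an unadjusted p below 0.05, 7 genes were higher and 4 lower (14.9% and 8.51%), against 8.03% and 5.72% of all genes, and DESeq2 called 5 higher, namely Aurkb, Kif20a, Mad2l1, Ncaph and Oip5, when it called 4.5% of all genes in either direction. The median difference was -0.04 beside 0 over all genes, and it turns to 0.47 with spike-in scaling, where that of all genes is 0.51. Both KO libraries lay above both WT libraries for 11 genes and below them for 9, against 25% and 18% of all genes. The differences spread widely, from -1.30 ± 0.41 for Anln to 3.38 ± 0.65 for Oip5 (adjusted p = 0.274 and 0.172). Anln stood at 44.01 and 48.9 CPM in LSK WT and 24.1 and 14.2 in LSK KO, without overlap. Beside it at the low end were Cdc25c (-1.24 ± 0.41), Kif4 (-0.84 ± 0.42) and Cdc25b (-0.81 ± 0.47), and at the high end Ncaph (1.68 ± 0.51), Kif20a (1.56 ± 0.43) and Ncapg (1.49 ± 0.91). Ncapg, a condensin subunit, had LSK WT libraries of 27.0 and 2.79 CPM, the widest gap of the 47 genes in any group. Aurkb differed by 1.06 ± 0.22 (adjusted p = 0.190).

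The difference between KO and Mut in LSK is taken between their own libraries, while the LSK WT libraries enter the estimate of its spread. Of the 47 differences, 43 were negative, with a median of -0.29 beside 0.00 over all genes, so KO mostly stood below Mut. None was called by edgeR (0 of 47, against 0.0607% of all genes), 0 were higher and 3 lower at an unadjusted p below 0.05 (2.62% and 1.62% of all genes), and DESeq2 called 0. The 3 were Aurkb (-0.59 ± 0.21), Ncapd2 (-0.43 ± 0.16) and Kif4 (-1.17 ± 0.42), each with an adjusted p of 1. Both KO libraries lay below both Mut libraries for 28 of the 47 genes and above them for 0, against 21.5% and 21.7% of all genes. The kinetochore set held 8 of 8 negative differences with a median of -0.41, from Nuf2 at -1.45 ± 0.74 to Knstrn at -0.19 ± 0.26. Central spindle genes had a median of -0.56 and chromosome structure genes of -0.06. The median over the 47 was also -0.29 when the LSK WT libraries were left out, and -0.89 with spike-in scaling, where that of all genes was -0.59.

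**Figure D4:**
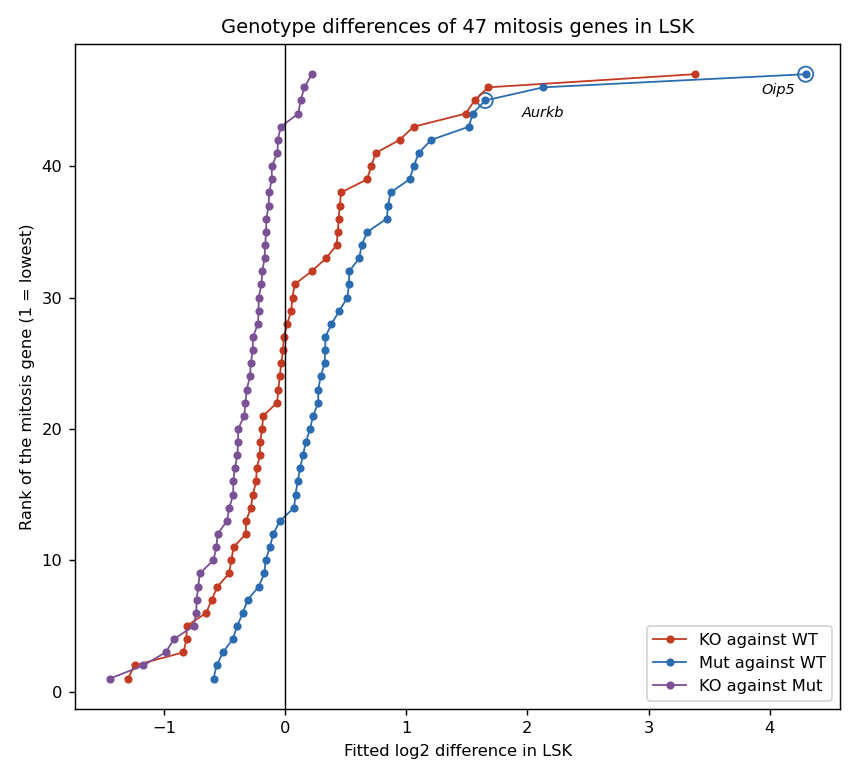
The 47 mitosis genes ranked by their fitted log2 difference within LSK, drawn separately for KO against WT (red), Mut against WT (blue) and KO against Mut (purple); the first 2 share the LSK WT libraries. Rings mark Aurkb and Oip5, called for Mut against WT. The purple curve lies below 0 for 43 genes, with spike-in scaling lowering its median further, and the blue curve lies above 0 for 34.

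The differences of KO and of Mut to WT share the LSK WT libraries, which also enter LSK against MPP in WT. Without LSK WT replicate 1, edgeR called 14 genes in Mut against WT and 11 in KO against WT, and without LSK WT replicate 2 it called 12 and 11, when 2430 and 2631 of all genes were called for Mut (17.3% and 18.7%) and 1475 and 1690 for KO. Without any one of the 4 other LSK libraries 0 were called for Mut, as with only the WT and Mut libraries in the fit. Other measures moved with genotype in the same libraries: Rn45s, given above, and the granulocyte-monocyte progenitor list, which summed to 2141 and 2553 CPM in LSK WT, 5159 and 4834 in LSK KO, and 6191 and 5986 in LSK Mut. All 10 genes of that list were above 0 in every LSK library, and edgeR called 3 of them higher in Mut than in WT and 1 in KO than in WT. Markers of T and NK cells summed to 236 and 271 CPM in WT, 407 and 415.5 in KO, and 440.04 and 428 in Mut, and 1 of 9, Nkg7, was called higher for Mut against WT. Erythroblast markers summed to 337 and 469.97 CPM in WT, 297 and 275 in KO, and 199 and 189.9 in Mut, with the 4 haemoglobin genes of the list at 0. Neutrophil markers summed to 97.9 and 173 CPM in WT and 42.2 to 60.1 in KO and Mut. Markers of mast cells, basophils and eosinophils summed to 166 to 343 CPM in LSK, highest in KO. Many markers had 0 counts in single LSK libraries. Of 9 neutrophil markers these were 5 and 4 in WT, 0 and 1 in KO, and 2 and 4 in Mut. Of 9 T and NK markers they were 5 and 6, 1 and 3, and 5 and 2. Of 11 mast cell, basophil and eosinophil markers they were 6 and 5, 0 and 1, and 4 and 3. The stem cell list summed to 2435 and 2058, 2484 and 2434, and 2415 and 2195 CPM. The part of these in the result was not tested.

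Within MPP, edgeR called 0 of the 47 genes in each comparison of genotypes, against 0.363% (KO against WT), 0.224% (Mut against WT) and 0.239% (KO against Mut) of the 12947 genes tested. At an unadjusted p below 0.05, 4 genes were higher and 0 lower for KO against WT, 3 and 1 in Mut against WT, and 4 and 2 in KO against Mut, when 3.83%, 4.94% and 4.25% of all genes were higher and 4.64%, 4.8% and 5.24% lower. The libraries of the first genotype named lay above those of the other for 19, 17 and 10 of the 47 genes, against 19.9%, 19.8% and 20.3% of all genes, and below them for 2, 5 and 7, against 20.1%, 19.4% and 19.9%. DESeq2 called 1 gene, Spc24, for KO against WT and 0 in the others, when it called 2.1%, 2.33% and 2.22% of all genes. Medians were 0.14, 0.17 and 0.05 beside -0.01, 0.00 and 0 over all genes; spike-in scaling turns the second to -0.42, where that of all genes is -0.59. The differences stayed small, from -0.65 to 0.75 over the 3 comparisons, with a median SE of 0.173, 0.172 and 0.172. Spc24, a subunit of the Ndc80 complex, stood at 115 and 141 CPM in WT, 213 and 207 in KO, and 167 and 167 in Mut. KO lay above Mut and Mut above WT without overlap. Spc24 differed by 0.71 ± 0.14 in KO against WT (adjusted p = 0.123) and 0.38 ± 0.14 for Mut against WT (0.422). At the ends of KO against WT were Oip5 (0.75 ± 0.29) and Cdc25c (0.75 ± 0.37) above, and the checkpoint gene Bub1b (-0.26 ± 0.13) and the central spindle motor Kif23 (-0.23 ± 0.18) below. For Mut against WT they were Cdc25b (0.65 ± 0.22) and Bub1 (0.64 ± 0.32), and Cdk1 (-0.30 ± 0.11) and Ncaph (-0.25 ± 0.23). Aurkb, which parted the genotypes of LSK, stood at 207 and 185 CPM in MPP WT, 182 and 218 in MPP KO, and 179 and 196 in MPP Mut, and overlapped throughout. Markers of other cells moved in the same MPP libraries. Those of granulocyte-monocyte progenitors summed to 60083 and 63270 CPM in WT, 48372 and 49053 in KO, and 50711 and 48324 in Mut. Erythroblast markers summed to 2115 and 2402 CPM in WT, 3065 and 2867 in Mut, and 3643 and 3587 in KO, the same order as Spc24, and 5 of 12 were called higher for KO against WT and 2 for Mut against WT. Neutrophil markers summed to 2067 and 2170 CPM in WT, 2283 and 2339 in KO, and 1097 and 1103 in Mut. Those of mast cells, basophils and eosinophils summed to 17011 and 18595 CPM in WT, 12017 and 11104 in KO, and 16535 and 15807 in Mut. Their part in the MPP differences was not tested. With spike-in scaling 11 genes were called lower in Mut than in WT, and 29 higher in KO than in Mut, when 17.7% and 25.1% of all genes were called in either direction.

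Whether a genotype difference itself differed between the populations was tested as an interaction, coded as the difference in LSK minus that in MPP. For Mut against WT, 4 of the 47 genes were called higher (8.51%, against 1.52% of the 14033 genes) and 0 lower (1.01% of all genes). At an unadjusted p below 0.05, 10 were higher and 1, Prc1, lower, against 10.2% and 6.84% of all genes, and DESeq2 called 7 higher and 0 lower, with 7.79% of all genes in either direction. Oip5, of the Mis18 complex, had an interaction of 3.91 ± 0.65 (adjusted p = 0.0136). Kif20a, the central spindle motor, had 2.33 ± 0.44 (0.0222), Aurkb 1.74 ± 0.22 (0.00419) and the checkpoint gene Mad2l1 1.23 ± 0.26 (0.0337). In all 4 the LSK WT libraries were the lowest of the 12, with LSK Mut above them, while MPP WT and MPP Mut differed by 0.41 ± 0.29, -0.18 ± 0.19, -0.07 ± 0.14 and -0.11 ± 0.15. Cdc20 came next, at 0.98 ± 0.24 (adjusted p = 0.0622). Over the 47 genes the median was 0.07, beside 0.08 over all genes. For KO against WT, 0 were called (0.727% of all genes), with 7 higher and 6 lower at an unadjusted p below 0.05 (7.95% and 4.41% of all genes) and 3 and 3 by DESeq2 (4.13% of all genes in either direction), and Aurkb had the lowest adjusted p, at 1.05 ± 0.22 (0.0674). For KO against Mut, 0 were called (0.0641% of all genes), with 0 higher and 7 lower at an unadjusted p below 0.05 (3.76% and 2.63% of all genes) and 0 by DESeq2, and 41 of 47 differences were negative with a median of -0.35. The median over all genes is not given here for KO against Mut, so that value is not read as particular to the 47.

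**Figure D5:**
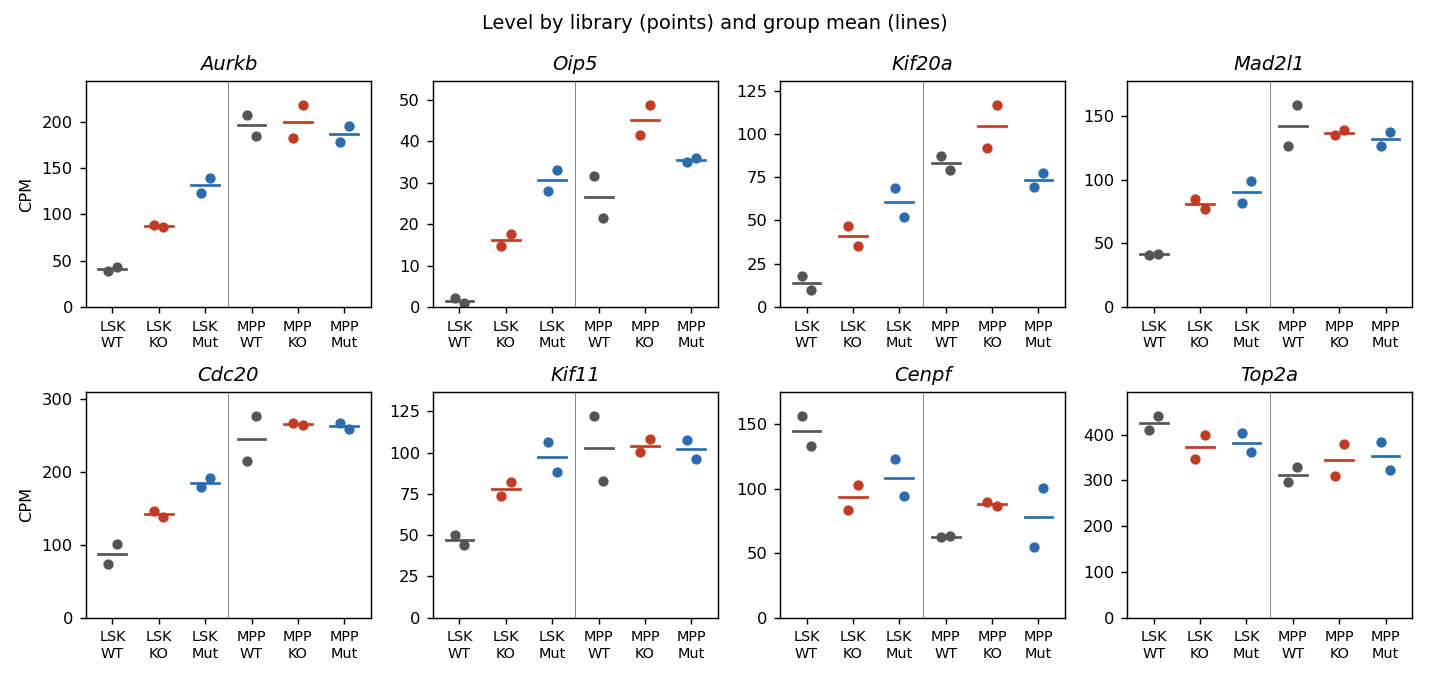
CPM of 8 mitosis genes in each library (points) with group means (lines), each panel on its own axis from 0. For Aurkb, Oip5, Kif20a and Mad2l1 the LSK WT points are the lowest of the panel, at 0.877 to 2.22 CPM for Oip5, while Cenpf and Top2a are highest in LSK WT; CPM are TMM-scaled, and with spike-in scaling LSK stands above MPP for nearly all of the 47 genes.

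The number of interactions called depended on single libraries. For Mut against WT it was 10 without LSK WT replicate 1 and 9 without LSK WT replicate 2, when 8.72% and 9.58% of all genes were called. It was 1 without MPP WT replicate 1, MPP Mut replicate 1, MPP Mut replicate 2 or LSK Mut replicate 2, and 2 without MPP WT replicate 2 or LSK Mut replicate 1, when 0.595% to 0.824% of all genes were called. Aurkb passed the threshold in 17 of 17 alternatives, Oip5 in 13, Kif20a in 11 and Mad2l1 in 7. For KO against WT, 7 genes were called without LSK WT replicate 1 and 8 without LSK WT replicate 2, when 5.47% and 6.07% of all genes were called.

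Other genes of the cell cycle were read from a pair of further lists. Of 77 other mitosis genes, 13 were called lower and 3 higher in LSK than in MPP in WT, 9 and 2 in KO, and 2 and 1 in Mut, on the TMM scale that spike-in scaling turns. Of all genes, 13.7% were called lower and 10.2% higher in WT, 8.14% and 7.03% in KO, and 5.21% and 3.55% in Mut. The 3 of the 77 higher in WT were Stmn1 (0.59 ± 0.10), which destabilises microtubules, Wee1 (0.95 ± 0.27), the kinase that holds Cdk1 inactive, and Aspm (1.32 ± 0.35), a protein of the spindle poles. Stmn1 stood at 662 to 936 CPM in the LSK libraries and 403 to 498 in MPP, without overlap, and was called higher in KO (1.05 ± 0.10) and Mut (0.89 ± 0.10) as well. Cks2, a small partner of Cdk1, was called lower in all genotypes, at -1.56 ± 0.19, -1.20 ± 0.19 and -0.74 ± 0.19. For genotype differences, 0 of the 77 were called by edgeR in LSK or MPP. At an unadjusted p below 0.05, 8 were higher and 0 lower for Mut against WT in LSK, against 10.2% and 8.89% of all genes. For Mut against WT, the interaction of Troap, a spindle-associated gene, was called lower, at -2.01 ± 0.46 (adjusted p = 0.0480). Of all genes, 1.01% were called lower there.

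Of 48 DNA replication genes, which act one stage earlier, 20 were called lower and 2 higher in LSK than in MPP in WT, 24 and 0 in KO (2 higher at an unadjusted p), and 8 and 1 in Mut. The shares of all genes called lower and higher were 13.7% and 10.2% in WT, 8.14% and 7.03% in KO, and 5.21% and 3.55% in Mut. Rrm2, the small subunit of ribonucleotide reductase, stood at 47.8 to 107 CPM in the LSK libraries and 356 to 575 in MPP. The libraries parted widely, and Rrm2 differed by -2.85 ± 0.16 in WT, -3.06 ± 0.16 in KO and -2.03 ± 0.15 in Mut. Mcm2, a subunit of the replicative helicase, stood at 238 and 193 CPM in LSK WT, 365 and 322 in KO, and 420.2 and 427 in Mut. It was called higher in LSK Mut than in LSK WT, by 0.96 ± 0.15 (adjusted p = 0.0368), and its interaction was 0.91 ± 0.16 (0.0159). Mcm7, another subunit, had an interaction of 1.002 ± 0.19 for Mut against WT (adjusted p = 0.0233). In MPP, Rrm2 was called higher in KO than in WT, by 0.60 ± 0.09 (adjusted p = 0.0336).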

How the data were processed

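RNA sequencing libraries of LSK and MPP cells (WT, KO and Mut, 2 technical replicates each) were analysed. Whole-number counts by gene symbol, not normalized, are what the authors deposited; per the submitters' processing notes Trim Galore 0.4.1, mm10, TopHat2 2.0.13, HTSeq 0.6.1 and Cufflinks were used. The gene annotation and the strand setting are not given in the sources used here. One column of the MPP table carries a number that does not match its title and was taken as MPP KO replicate 2 by the rest of its name. The 92 spike-in rows were kept out of the library sizes. A floor of 3 counts is 0.135 to 0.317 CPM over the libraries.

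The 6 libraries of a population (LSK 13170 and MPP 12947 genes, with 3 residual degrees of freedom), or all 12 (14033 genes, 6 residual degrees of freedom) for LSK against MPP and for interactions, were fitted with edgeR 4.0.16 in R 4.3.3. TMM scaling, filterByExpr (minimum count 10, minimum total 15), one mean per group and quasi-likelihood tests were used, with two-sided p values adjusted by the Benjamini-Hochberg method over all genes tested. The fits were tested on simulated data. Alternatives were no filter, spike-in and upper-quartile scaling, a replicate block, DESeq2 1.42.0, a fit of the compared groups alone and each library left out; leaving out both LSK WT libraries was added after seeing the data.

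Members and lists were chosen with earlier results of these data known. Genes given with statistics are those called in a comparison, those with the 4 highest and 4 lowest differences (mean count of at least 50 in the higher group), and Cdk1, Ccnb1, Plk1, Cdc20, Aurka, Aurkb, Birc5, Cenpa, Kif11, Top2a and Mki67, in part by summary. Of other lists, up to 4 called genes per direction were named. Marker lists of other blood cells were summed per library.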

Additional observations from a re-analysis of the deposited data

Results flagged for a closer look

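The difference between Mut and WT itself differed between LSK and MPP for 4 of the 47 genes, by the interaction test of edgeR over all 12 libraries with Benjamini-Hochberg adjustment. The difference in LSK minus that in MPP was 3.91 for Oip5 (adjusted p = 0.0136), 2.33 for Kif20a (0.0222), 1.74 for Aurkb (0.00419) and 1.23 for Mad2l1 (0.0337) on the log2 scale. In each of them both LSK WT libraries were the lowest of the 12, and those libraries also stood apart in detected genes, in the share of Rn45s and in the gap between replicates. The part of those measures in the interactions was not tested.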

How the results depend on the processing

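With 2 technical libraries a group, calls rest on few degrees of freedom. Depth was uneven over the libraries, and the replicate gap of LSK WT limits what its comparisons can show. Counts of the 47 genes called moved most with the scaling and with single libraries; the cause was not tested. Leaving out 1 library at a time gave 0 to 11 genes for KO against WT in LSK, 0 to 14 for Mut against WT in LSK, 13 to 23, 7 to 26 and 0 to 11 for LSK against MPP in WT, KO and Mut, 0 to 8 for the interaction of KO against WT and 1 to 10 for that of Mut against WT, and 0 in the other comparisons. DESeq2 called 5 for KO against WT and 8 for Mut against WT in LSK, 1 for KO against WT in MPP, 10 for LSK against MPP in Mut, and 6 and 7 for the interactions of KO and of Mut against WT. Without the filter, 4 were called for Mut against WT in LSK, 1 for KO against WT in MPP, and 1 and 7 for those interactions. With only the groups compared, 0 were called for Mut against WT in LSK, and 6 and 7 for LSK against MPP in WT and Mut. The counts without the filter and with only the groups compared are not set beside shares of all genes. Without both LSK WT libraries, 11 were called for LSK against MPP in Mut.

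Replicates with the same number did not deviate together, so the numbers do not pair the samples. With a replicate block, 0 genes were called for Mut against WT in LSK in place of 2, and 18, 20 and 3 for LSK against MPP in WT, KO and Mut.

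Spike-in scaling called 1 gene for KO against WT and 26 for Mut against WT in LSK, 11 for Mut against WT in MPP, 29 for KO against Mut there, 46, 47 and 47 for LSK against MPP, and 34 for the interaction of Mut against WT. For LSK against MPP that scaling moved most genes the same way, so the counts there are not particular to the 47 genes. The share of all genes called is not given here for Mut against WT in LSK or for the interaction. Spike-in scaling turned medians to 0.47 (KO against WT in LSK), -0.42 (Mut against WT in MPP), 3.64, 3.85 and 5.52 (LSK against MPP in WT, KO and Mut) and 0.22 (interaction of KO against WT). The first became 0.037 with upper-quartile scaling, and -0.095 to 0.10 with 1 library left out. It also turned Ncapd2 (-0.14) and Spc24 (-0.22) for Mut against WT in MPP, Cdc25b (0.0025) and Kif23 (0.081) for KO against Mut in MPP, and the interaction of Prc1 (1.06). For LSK against MPP in WT the turned differences were Aurka 3.34, Aurkb 1.96, Birc5 3.59, Bub1b 2.60, Ccna2 3.37, Ccnb1 2.76, Ccnb2 2.96, Cdc20 2.71, Cdk1 3.40, Cenpa 3.56, Kif11 3.07, Kif20a 1.55, Mad2l1 2.40, Ncaph 1.95, Nusap1 3.32, Oip5 0.037, Plk1 3.09. In KO they were Anln 3.07, Aurka 3.33, Aurkb 3.42, Birc5 3.79, Bub3 3.99, Ccna2 3.21, Ccnb1 3.40, Ccnb2 3.39, Cdc20 3.71, Cdca8 3.55, Cdk1 3.87, Cenpa 3.56, Kif20a 3.25, Kif4 3.28, Mad2l1 3.85, Nuf2 2.59, Nusap1 3.78, Oip5 3.14, Plk1 3.58, Prc1 3.89, Spc24 3.62, Ube2c 4.06. In Mut they were Ccna2 4.81, Cenpa 5.17, Plk1 4.999.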
